A study of Mus musculus with 10 samples.

Results

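Transcripts of 36 mouse genes for enzymes of fatty acid activation and β-oxidation were compared between the left ventricles of control mice and of mice given both a high-fat diet (HFD) and moderate transverse aortic constriction (mTAC). The genes were chosen by name, not by a measured value, but with earlier results of these data known. They had to have TPM (length-corrected transcript abundance scaled to a common total) above 0 in at least 9 of 10 mice. All 36 met that requirement, with TPM above 0 in all 10 mice, and all were among the 13295 genes tested of 29564 listed. RNA was sequenced from homogenates of the whole left ventricle of wild-type male C57BL6 mice (C57BL/6J in the study's methods), 5 control mice (TT-583 to TT-587) and 5 mice with HFD+mTAC (TT-588 to TT-592). Control mice had no surgery and ate a diet in which fat gave 10% of kilocalories. HFD+mTAC mice had a constriction placed around the aortic arch at 11 weeks of age, chow replaced by a high-fat diet (60% of kilocalories) and 16 weeks of induction, and are labelled as an HFpEF model, that is heart failure in which the ejection fraction is kept. Both groups carry the label vehicle, an oral mixture of DMSO, PEG-300 and water that was given at 10 mL per kg once a day for 6 to 9 weeks. No group had the diet or the constriction alone, so that the effects of diet and surgery cannot be told apart.

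The adult heart takes most of its ATP from fatty acids. Acyl-CoA synthetases activate a fatty acid with coenzyme A, the carnitine shuttle carries the acyl group into the mitochondrion, and β-oxidation shortens it through repeated rounds of dehydrogenation, hydration, a second dehydrogenation and thiolysis. Auxiliary enzymes handle double bonds, the electron transfer flavoproteins pass electrons to ubiquinone, peroxisomes take very long and branched chains, and malonyl-CoA blocks entry at carnitine palmitoyltransferase. Many of these genes are targets of the nuclear receptor PPARα, which fatty acids activate.

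The enzymes were transcribed in amounts that spanned nearly 4 orders of magnitude, and together they made up 1.58 to 2.13% of TPM over the genes tested in control mice and 2.01 to 2.58% in HFD+mTAC mice. The summed level was 18659 ± 1969 TPM (SD, n = 5) in control mice and 23235 ± 2492 TPM (SD, n = 5) in HFD+mTAC mice, with ranges of 15788 to 21333 and 20149 to 25752 that overlapped. Ech1, which encodes the dienoyl-CoA isomerase, had the highest level, a mean of 4349 TPM over 10 mice. Hadhb, the thiolase subunit of the mitochondrial trifunctional protein, followed at 3358 TPM. The thioesterase gene Acot13 reached 1685 TPM, the long-chain dehydrogenase gene Acadl 1621 TPM, and Etfb and Etfa, the subunits of the electron transfer flavoprotein, 1538 and 1103 TPM. At the low end stood Acsl5, Acsl4, Acad10, Acsl3, Acad9 and the peroxisomal Ehhadh, between 1.23 and 6.33 TPM, and the thioesterase gene Acot1 at 0.499 TPM. These levels rest on the deposited effective lengths, which ranged from 0.267 times (Cpt2) to 3.90 times (Ehhadh) the length of the longest annotated coding transcript. When CPM (counts scaled to a common library total) were divided by that annotated length instead, Ech1 and Hadhb kept ranks 1 and 2, whereas Acot13 moved from rank 3 to rank 9 and Echs1 from rank 24 to rank 17.

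**Figure D1:**
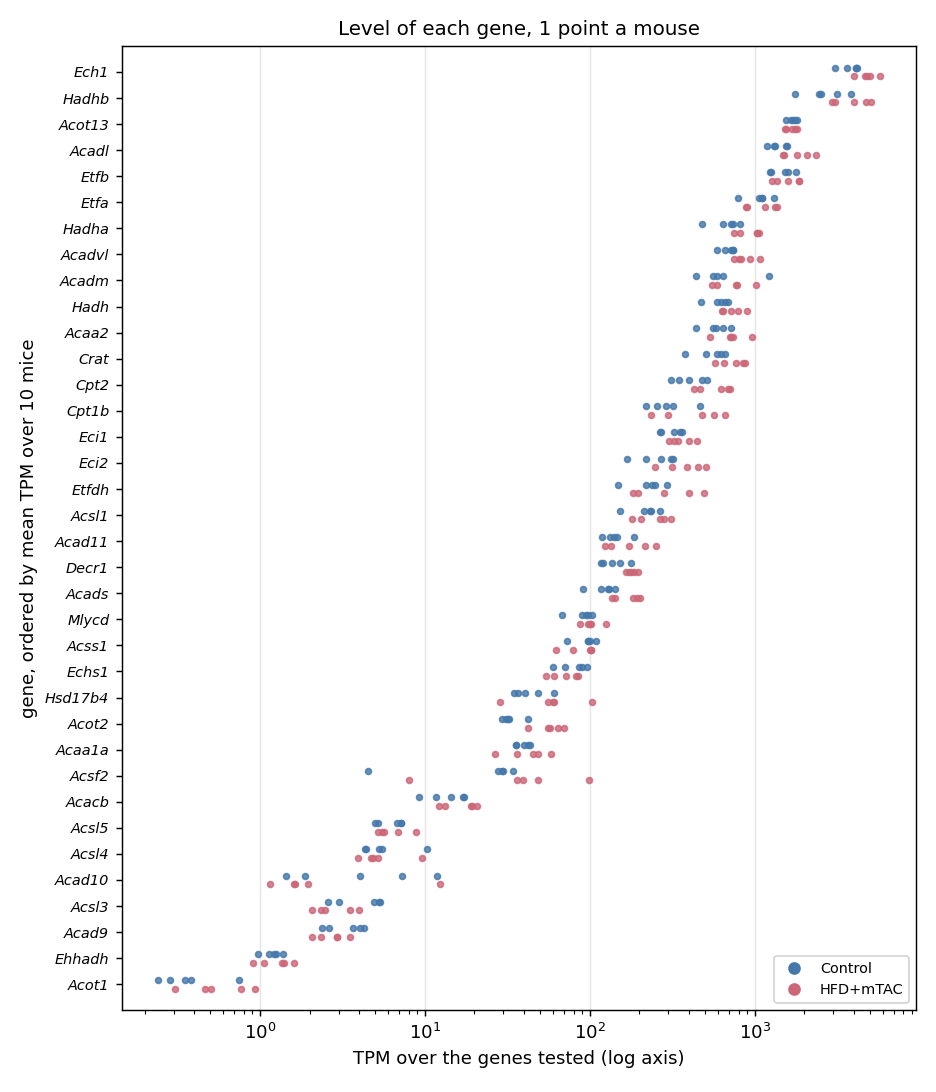
Level of each of the 36 genes in TPM over the genes tested (horizontal log axis), 1 point a mouse, control mice in blue and HFD+mTAC mice in red, ordered by mean over 10 mice. Levels run from 0.499 TPM for Acot1 to 4349 TPM for Ech1, and in most genes the mice of both groups intermingle.

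The groups were compared on counts, scaled as CPM by the TMM method, with edgeR's quasi-likelihood test over all 13295 genes. Of the 36 genes, 28 had a log2 fold change above 0 in HFD+mTAC mice and 8 below 0, that is 77.8% above 0 against 50.4% of all genes tested. The median log2 fold change was 0.23, against 0.001 over all genes. Only Acsf2 passed an adjusted p under 0.05, and it was higher in HFD+mTAC mice; over all genes 0.0602% passed in either direction and 0.0451% passed as higher. At an unadjusted p under 0.05, 15 of the 36 genes (41.7%) were higher, against 4.54% of all genes, and 0 were lower, against 3.72%. In 4 of the 36, Acsf2, Decr1, Ech1 and Hadh, all 5 HFD+mTAC mice exceeded all 5 control mice in CPM, against 1.08% of all genes, and in 0 below, against 0.888%. With DESeq2 in place of edgeR, Acsf2, Decr1, Ech1 and Acot2 passed as higher, 4 of 36 against 0.466% of all genes. The genes share a pathway and the same 10 mice, so that they are not independent measurements, and no test was made over the list. Higher at an unadjusted p under 0.05 were 5 of the 36 without HFD+mTAC mouse TT-589, against 4.14% of all genes, and 9 without HFD+mTAC mouse TT-592, against 4.2%. Without HFD+mTAC mouse TT-591, 10 of the 36 were higher without overlap, against 1.71% of all genes; with fewer mice in a group more genes separate.

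**Figure D2:**
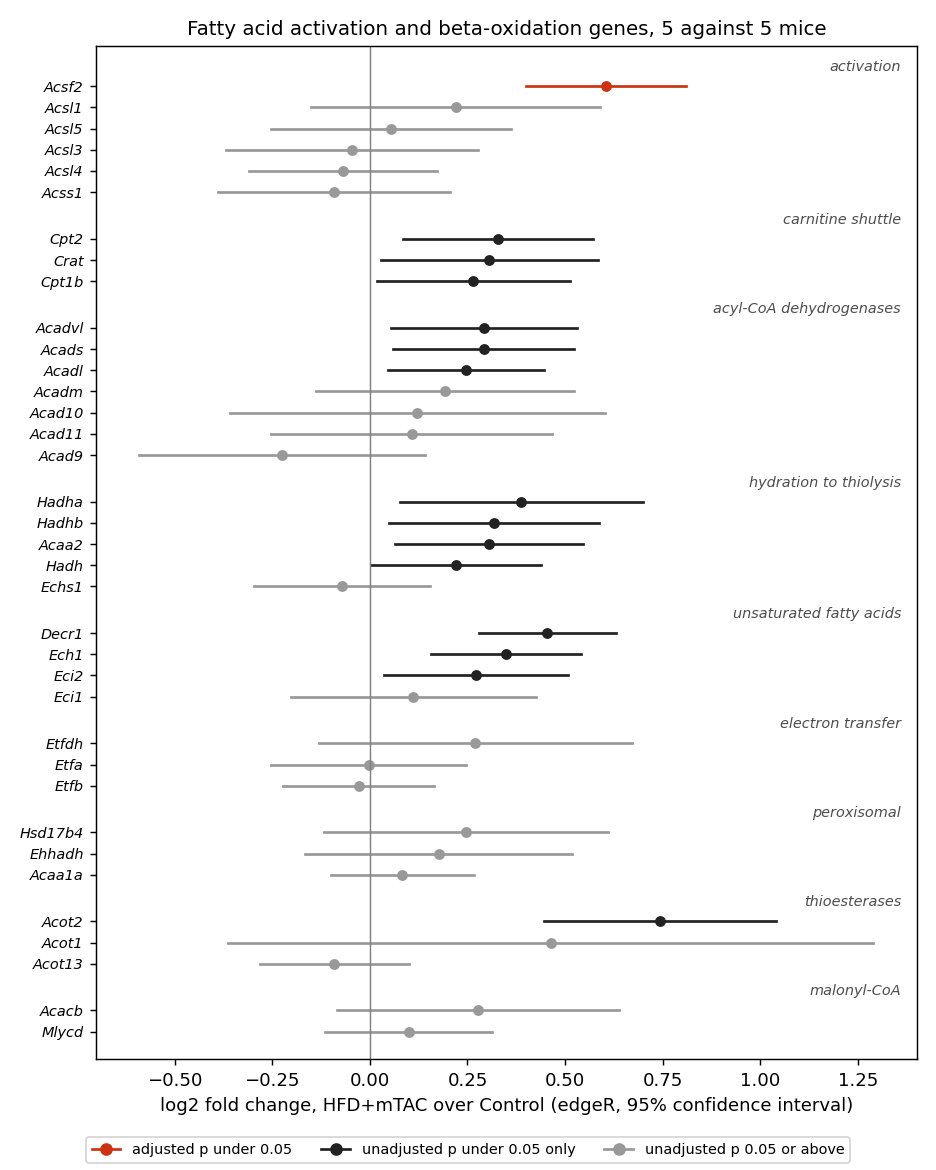
Log2 fold change of HFD+mTAC over control mice (horizontal axis) with its 95% confidence interval from edgeR, 5 against 5 mice, for the 36 genes in blocks by role. Acsf2 (red) is the gene past an adjusted p under 0.05, and 14 more (black) have an unadjusted p under 0.05, all to the right of 0.

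The shift was uneven among the mice of a group. Control mouse TT-587 was the lowest of the 10 mice in 19 of the 36 genes, whereas it was the lowest in 15.3% of the 10098 genes with a mean of at least 5 CPM. TT-587 was the highest in 2 of the 36 genes and in 16.3% of those 10098 genes. Its shares of 15.3% and 16.3% were each the largest of any mouse, so that it was often extreme beyond the 36 genes. HFD+mTAC mouse TT-589 was the highest in 16 of the 36, against 8.96% of those genes. Expressed as the median over the 36 genes of the difference from each gene's mean log2 CPM, the control mice stood at -0.11, 0.01, 0.004, -0.07 and -0.40, in the order TT-583 to TT-587. The HFD+mTAC mice stood at 0.19, 0.30, -0.02, -0.08 and 0.19, in the order TT-588 to TT-592. Mice TT-590 and TT-591 thus lay among the control mice, and TT-587 lay apart below the others. Without TT-587 the median log2 fold change of the 36 genes was 0.18 and without TT-589 it was 0.17. TT-587 had the fewest counts of all libraries, 34.2 M, and TT-589 had 46.7 M. The deepest library, TT-585 at 53.7 M, stood at 0.004, and TT-588 and TT-592, at 38.7 and 38.3 M, both stood at 0.19. On the genes tested, TT-587 had 12.6 M counts, TT-589 16.9 M and TT-585 21.1 M. The part of depth in these deviations was not tested.

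**Figure D3:**
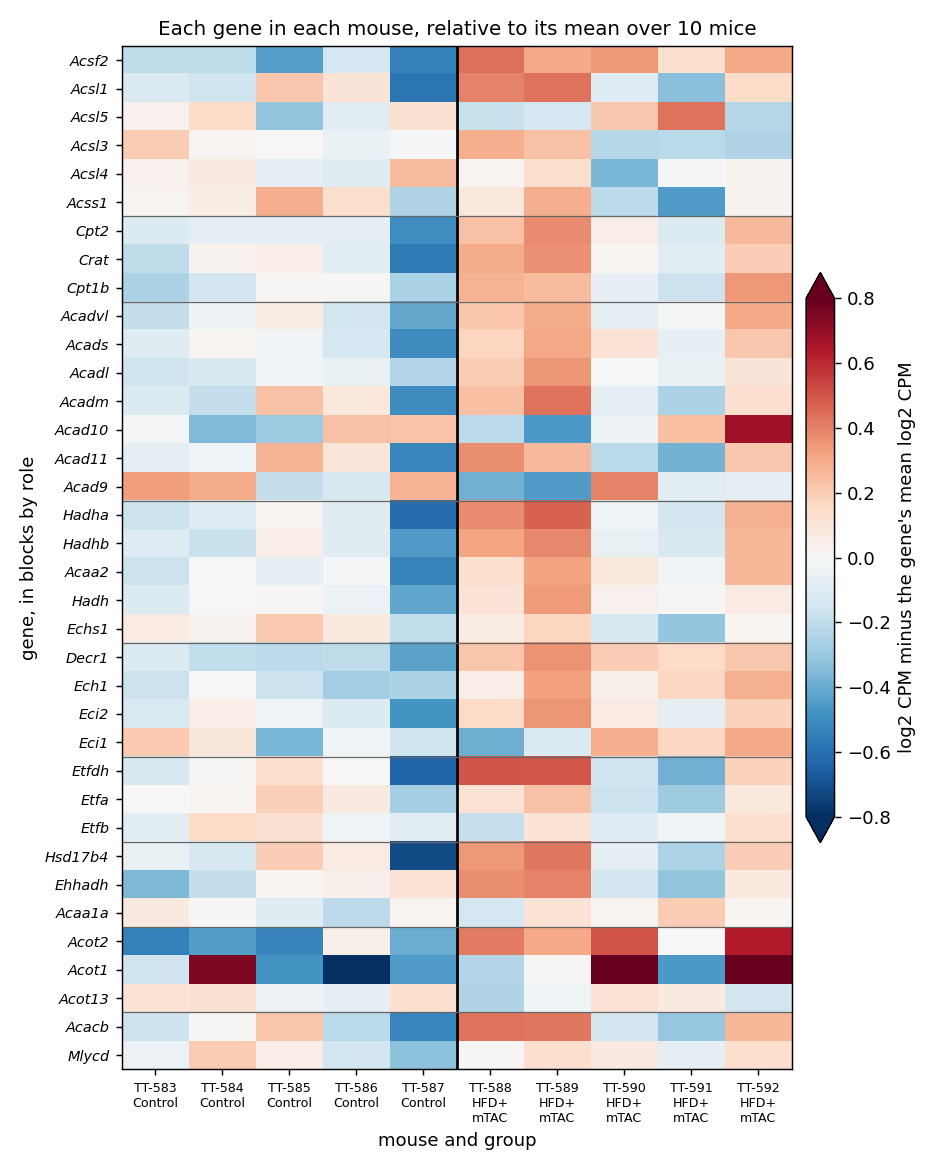
Difference of each gene's log2 CPM in each mouse (columns) from the gene's mean over the 10 mice, with the 36 genes in rows and blocks by role and the control mice left of the black line. Control mouse TT-587 is the lowest mouse in 19 rows and HFD+mTAC mouse TT-589 the highest in 16, and TT-590 and TT-591 look paler than the other HFD+mTAC mice.

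The libraries held 34.2 to 53.7 M counts in control mice and 35.8 to 46.7 M in HFD+mTAC mice (two-sided exact permutation test of the means, p = 0.444). Mitochondrially encoded genes took 47.8 ± 3.57% of counts (SD, n = 5) in control and 50.1 ± 2.37% (SD, n = 5) in the other group, p = 0.246 in the same exact permutation test. The 8 ventricular cardiomyocyte markers were all present and summed to 52734 to 63981 TPM in control mice and 44151 to 55261 TPM in HFD+mTAC mice, lower in the latter by the exact permutation test (p = 0.0238). Between the group means, this sum was lower where that of the 36 genes was higher. Within the groups both sums had the same extremes. They were highest in TT-585 and lowest in TT-587 among control mice, and highest in TT-589 and lowest in TT-590 among HFD+mTAC mice. The part of the marker sum in the results was not tested. In bulk RNA, fewer cells of a type and less RNA per cell cannot be told apart. Fibroblast, endothelial, smooth muscle and pericyte, macrophage, lymphocyte and erythroid markers gave p between 0.206 and 0.81 in the same exact permutation test, and macrophage markers were measured in 5 of 6. The atrial markers summed to 247 to 392 TPM in control and 130 to 339.7 TPM in HFD+mTAC mice (p = 0.0714, exact permutation test), and Sln and Bmp10 were at or under 0.1 TPM. In TPM as deposited, Nppa averaged 96.2 and the next atrial marker, Myl4, 1.26. The atrial sum and its p thus describe Nppa almost alone. Of 6 adipocyte markers, 5 were at or under 0.1 TPM, among them Adipoq and Plin1, and Ucp1 of brown fat was listed at 0 in all mice. The sums of the adipocyte and brown adipocyte markers gave p of 0.421 and 0.889 in the exact permutation test. The brown adipocyte sum was almost only Cidea, which averaged 3.50 TPM as deposited, whereas the other brown adipocyte markers averaged at most 0.0467 TPM.

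Acsf2 encodes a mitochondrial acyl-CoA synthetase for medium-chain fatty acids. Its CPM was 72.4, 72.3, 61.4, 75.5 and 57.2 in the control mice, listed from TT-583 to TT-587, and 113, 103, 106, 91.1 and 102.5 in the HFD+mTAC mice, listed from TT-588 to TT-592, the order kept for each gene that follows. The lowest HFD+mTAC mouse lay above the highest control mouse, and the increase was 52.0%. The log2 fold change was 0.60 (95% confidence interval 0.40 to 0.81, adjusted p = 0.0455 from edgeR). Acsf2 was the eighth gene of all by p, and most fits with 1 mouse left out lost the call: it passed only without TT-591 (edgeR adjusted p = 0.0491), and the other 9 fits gave adjusted p between 0.0709 and 0.155. The gene lies on the minus strand of chromosome 11 of GRCm38, from 94557102 to 94601871, and overlaps Chad on the opposite strand, which had 0 to 6 counts a mouse.

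On the TPM scale the same gene did not separate the groups. The deposited effective length of Acsf2 was 2522, 2552, 2224, 2222 and 12605 bases in TT-583 to TT-587 and 1277, 13694, 2683, 2668 and 2224 bases in TT-588 to TT-592. The lengths in TT-587 and TT-589 were longer than the longest annotated transcript, which has 3154 bases. TPM, which divides counts by these lengths, was 29.8, 27.7, 29.3, 34.1 and 4.54 among control mice and 99.2, 8.02, 39.4, 36.5 and 48.9 among HFD+mTAC mice. The groups then overlapped through TT-589, and the difference of the mean TPM gave p = 0.214 (exact permutation test). With the lengths as an offset in edgeR, the log2 fold change was 0.82 and the adjusted p 0.78. The length differed between mice by 10.7 times for Acsf2, by 6.74 times for Acad10 and by at most 2.43 times for the other 34 genes.

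**Figure D4:**
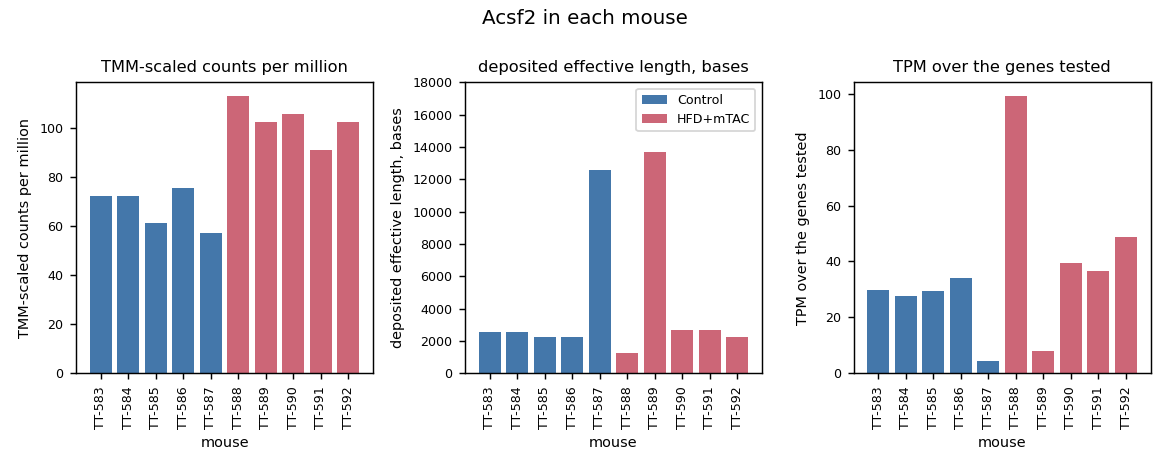
Acsf2 in each of 10 mice, control in blue and HFD+mTAC in red, as TMM-scaled CPM (left), deposited effective length in bases (middle) and TPM over the genes tested (right), with all bars starting at 0. The CPM of every HFD+mTAC mouse is above that of every control mouse, whereas the long effective lengths of TT-587 and TT-589 go with their TPM of 4.54 and 8.02.

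The other activating enzymes did not pass the test. Acsl1, the main long-chain acyl-CoA synthetase of the heart and the most abundant of the group at 235 TPM, ranged from 712 to 1244 CPM in control and from 849 to 1444 CPM among HFD+mTAC mice. Its log2 fold change of 0.22 had a 95% confidence interval from -0.15 to 0.59. Acsl5, which activates long chains at the endoplasmic reticulum and mitochondria, Acsl3, which acts at lipid droplets, and Acsl4, which prefers arachidonic acid, had log2 fold changes of 0.05, -0.05 and -0.07. Acss1, the mitochondrial acetyl-CoA synthetase, had -0.09. All of these intervals included 0.

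The 3 genes of the carnitine shuttle had unadjusted p between 0.0122 and 0.0375 and log2 fold changes of 0.27 to 0.33, and none passed after adjustment. Cpt2 encodes the palmitoyltransferase of the inner mitochondrial membrane, which hands the acyl group back to coenzyme A. Its CPM was 270.1, 277, 277, 276 and 206.5 among control mice and 342, 378, 302, 269 and 348.5 among HFD+mTAC mice. Control mice TT-583 to TT-586 lay within a narrow band, TT-587 lay far below it, and TT-591 alone of the HFD+mTAC mice fell inside the control range. The log2 fold change was 0.33 (95% confidence interval 0.08 to 0.57, adjusted p = 0.426 from edgeR). Cpt1b, the muscle form of the outer-membrane enzyme that malonyl-CoA inhibits, went from 766 ± 70.8 to 921 ± 143.5 CPM (SD, n = 5 each) and Crat, the carnitine acetyltransferase that buffers acetyl-CoA, from 782 ± 127 to 967 ± 126 CPM (SD, n = 5 each).

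Of the 7 acyl-CoA dehydrogenase genes, the very long-chain Acadvl, long-chain Acadl and short-chain Acads had unadjusted p under 0.05, and their log2 fold changes were 0.29, 0.25 and 0.29 (edgeR adjusted p = 0.478, 0.478 and 0.467). Acads had 219, 237, 229, 212 and 165 CPM among control mice and 263, 290.0, 252.4, 223 and 272 CPM among HFD+mTAC mice. Only TT-591 of the HFD+mTAC mice fell within the control range. The medium-chain Acadm, one of the more abundant genes at 718 TPM, had a log2 fold change of 0.19 with a 95% confidence interval from -0.14 to 0.52. Acad11 and Acad10, whose physiological substrates are less well known, had 0.11 and 0.12, and the value of Acad10 turned to -0.54 with limma on log2(TPM + 1). Acad9, which also serves in the assembly of respiratory complex I, had -0.22 (95% confidence interval -0.59 to 0.14), the lowest value among the 36 genes. Acadvl separated the groups in TPM, with 593 to 742 in control and 754 to 1076 among HFD+mTAC mice. The exact permutation test gives p = 0.00794 for any such separation of 5 and 5 mice, and limma on log2(TPM + 1) gave an adjusted p of 0.638. In CPM the groups overlapped, with TT-590 at 1237 and TT-591 at 1296 inside the control range of 983 to 1362. TPM rests on the deposited effective length, which for Acadvl ran from 1287.8 bases in TT-591 to 2265.5 bases in TT-588.

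Among the enzymes from hydration to thiolysis, 4 of 5 had unadjusted p under 0.05. Hadha and Hadhb encode the subunits of the trifunctional protein, which carries out the last 3 steps on long chains at the inner membrane. Hadha had 1615, 1692, 1844, 1702 and 1186 CPM among control mice and 2358, 2524, 1784, 1638 and 2214 CPM among HFD+mTAC mice. Hadhb had 1937, 1835, 2160, 1942 and 1519 CPM among control mice and 2592, 2714, 1996, 1904 and 2504 CPM among HFD+mTAC mice. In both genes TT-588, TT-589 and TT-592 lay above all control mice, whereas TT-590 and TT-591 lay within the control range. The log2 fold changes were 0.39 for Hadha and 0.32 for Hadhb (edgeR adjusted p = 0.472 and 0.504).

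Acaa2, the mitochondrial thiolase that releases acetyl-CoA, had 939, 1060, 1013, 1046 and 736 CPM among control mice and 1160, 1324, 1121, 1044 and 1275 CPM among HFD+mTAC mice, which gave a log2 fold change of 0.31 (edgeR adjusted p = 0.461). Here TT-591 alone overlapped with the control mice. Hadh encodes the dehydrogenase for short and medium chains. Its CPM was 876, 950.5, 953, 916 and 708 among control mice and 1022, 1196, 971, 954 and 989 among HFD+mTAC mice. The groups did not overlap, yet the highest control mouse and the lowest HFD+mTAC mouse, at 953 and 954 CPM, were almost level, and the log2 fold change of 0.22 had an adjusted p of 0.600 from edgeR. In TPM the groups overlapped (exact permutation test, p = 0.0714). Echs1, the short-chain enoyl-CoA hydratase of the same sequence of reactions, had a log2 fold change of -0.07 (95% confidence interval -0.30 to 0.15).

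The auxiliary enzymes that deal with double bonds included 2 of the 4 genes whose groups did not overlap. Decr1 encodes the mitochondrial dienoyl-CoA reductase, which is needed for polyunsaturated chains. Its CPM was 628, 591.6, 585.9, 588.4 and 502 among control mice and 789, 869.6, 774.5, 752 and 784.5 among HFD+mTAC mice. The lowest HFD+mTAC mouse was well clear of the highest control mouse, and each group was tight around its mean, 579 ± 46.4 and 794 ± 44.8 (SD, n = 5 each). The log2 fold change was 0.45 (95% confidence interval 0.28 to 0.63), with an adjusted p of 0.0934 from edgeR and 5.5e-05 from DESeq2.

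Ech1 had 1461, 1641, 1460, 1356 and 1379 CPM among control mice and 1702, 2061, 1686, 1844 and 2001 CPM among HFD+mTAC mice, again without overlap. The log2 fold change was 0.35 (95% confidence interval 0.16 to 0.54), with an adjusted p of 0.261 from edgeR and 0.0239 from DESeq2. In TPM, Decr1 and Ech1 both overlapped between groups (exact permutation test of the means, p = 0.0238 and 0.0317). Eci2 and Eci1, the isomerases that shift a double bond into place, had log2 fold changes of 0.27 and 0.11, and the first had an unadjusted p of 0.0275 from edgeR.

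**Figure D5:**
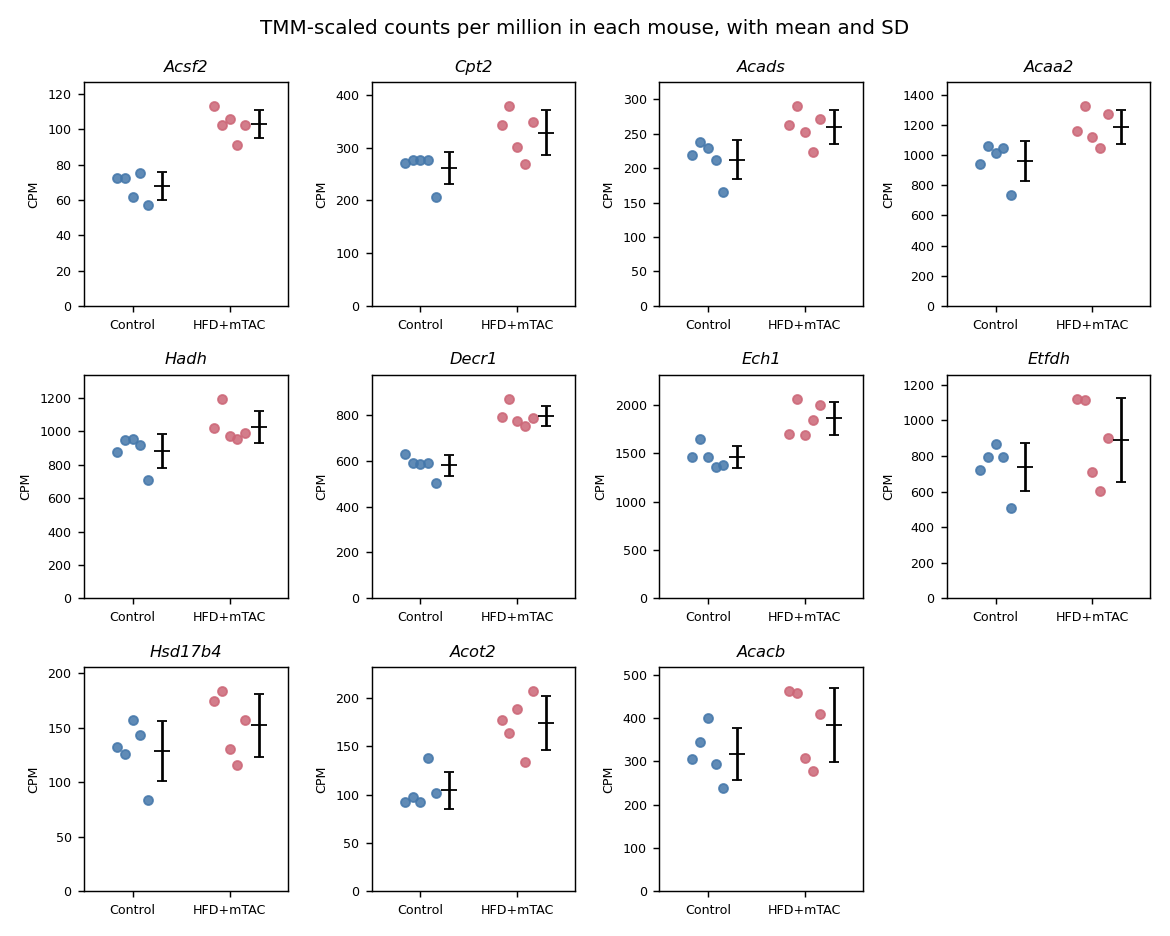
TMM-scaled CPM (vertical axes, starting at 0) of 11 genes in each of 5 control mice (blue) and 5 HFD+mTAC mice (red), with the mean and SD in black. Acsf2, Decr1, Ech1 and Hadh have no overlap between the groups, and in Acot2 the highest control mouse at 138 CPM and the lowest HFD+mTAC mouse at 133 CPM cross.

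The 3 genes of electron transfer had unadjusted p of 0.169 or more. Etfa and Etfb had log2 fold changes of -0.003 and -0.03, with 95% confidence intervals of -0.25 to 0.25 and -0.22 to 0.17. Etfdh, the oxidoreductase that delivers the electrons to ubiquinone, had 724, 797, 866, 794 and 509 CPM among control mice and 1122, 1116, 708.5, 606 and 899 CPM among HFD+mTAC mice. In HFD+mTAC mice Etfdh was spread more widely, with TT-588, TT-589 and TT-592 above all control mice and TT-590 and TT-591 below 4 of the 5 control mice. Its adjusted p was 0.772 from edgeR.

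The peroxisomal genes were low and none had an unadjusted p under 0.05. Hsd17b4, the multifunctional enzyme for branched and very long chains, had 132, 126, 157, 143.5 and 83.6 CPM among control mice and 174.5, 184, 130.5, 115.5 and 158 CPM among HFD+mTAC mice. The mice that stood high were TT-588, TT-589 and TT-592, the last by less than 1 CPM over the highest control mouse. The log2 fold changes were 0.25 for Hsd17b4, 0.18 for Ehhadh, the bifunctional enzyme of straight chains, and 0.08 for Acaa1a, a peroxisomal thiolase. Acaa1a shares 43.8% of its stretches of 31 bases with its paralog Acaa1b, which had 1.5 to 11.6 counts a mouse.

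Thioesterases split acyl-CoA back into fatty acid and coenzyme A. Acot2, the mitochondrial form for long chains, had 91.8, 98.0, 92.6, 138 and 101 CPM among control mice and 178, 164, 189, 133 and 207 CPM among HFD+mTAC mice. The groups overlapped only because control mouse TT-586 stood high and HFD+mTAC mouse TT-591 low. The log2 fold change of 0.74 (95% confidence interval 0.44 to 1.04) was the largest point estimate among the 36 genes, with an adjusted p of 0.106 from edgeR and 0.00047 from DESeq2. Of the 10 edgeR fits with 1 mouse left out, only that without TT-591 passed (adjusted p = 0.0491), and the highest adjusted p was 0.325. In TPM the groups of Acot2 did not overlap, at 29.5 to 42.1 in control and 42.3 to 69.6 among HFD+mTAC mice. The exact permutation test gives p = 0.00794 for any such separation of 5 and 5 mice, so that it adds nothing to it. With limma on log2(TPM + 1) the adjusted p of Acot2 was 0.265.

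Acot1, the cytosolic paralog of Acot2, was low, at 0.846 to 2.52 CPM in control and 1.09 to 2.89 CPM among HFD+mTAC mice, and its log2 fold change of 0.46 had a 95% confidence interval from -0.36 to 1.29. The longest coding transcripts of Acot1 and Acot2 were identical at 94.3% of 1330 aligned bases and shared 29.9% of the stretches of 31 bases in Acot2, so that the split of reads between them is uncertain. Acot13, a small mitochondrial thioesterase, had a log2 fold change of -0.09 (95% confidence interval -0.28 to 0.10).

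The enzymes that set malonyl-CoA had intervals that included 0. Acacb, the acetyl-CoA carboxylase at the outer mitochondrial membrane that makes malonyl-CoA, had 304.5, 345, 399.5, 294 and 238 CPM among control mice and 462, 458.5, 308.5, 277 and 410.2 CPM among HFD+mTAC mice. TT-588, TT-589 and TT-592 again lay above all control mice, whereas TT-590 and TT-591 lay inside their range, and the log2 fold change was 0.28 (edgeR adjusted p = 0.714). Mlycd, the malonyl-CoA decarboxylase that removes it, had a log2 fold change of 0.10 (95% confidence interval -0.11 to 0.31).

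Upstream sequence is shown for Acsf2, the gene that passed, for Ech1 and Acot2, which passed with DESeq2, and for Hadha and Hadhb, which start back to back. The bases are from RefSeq (GRCm38.p6), lie before the RefSeq start of the gene and outside all annotated exons, and are printed 5′ to 3′ on the strand of the gene, with CpG dinucleotides in capitals. They cover chr11:94601872-94602036 on the minus strand for Acsf2, chr7:28825088-28825216 on the plus strand for Ech1, chr12:83987611-83987860 on the plus strand for Acot2 and chr5:30155163-30155247 on the plus strand, between the first exons of Hadha and Hadhb.
Acsf2: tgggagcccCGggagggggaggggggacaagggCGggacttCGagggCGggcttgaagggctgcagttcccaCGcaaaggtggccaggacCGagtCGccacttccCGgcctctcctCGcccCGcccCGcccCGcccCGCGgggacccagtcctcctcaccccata
Ech1: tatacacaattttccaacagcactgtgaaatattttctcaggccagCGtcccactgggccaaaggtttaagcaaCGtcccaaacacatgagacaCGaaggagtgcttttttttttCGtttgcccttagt
Acot2: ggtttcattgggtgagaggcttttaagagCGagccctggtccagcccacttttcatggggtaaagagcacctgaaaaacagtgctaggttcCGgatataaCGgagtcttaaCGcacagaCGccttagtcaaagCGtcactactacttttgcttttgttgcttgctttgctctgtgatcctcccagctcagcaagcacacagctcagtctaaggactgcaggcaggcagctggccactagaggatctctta
Hadhb: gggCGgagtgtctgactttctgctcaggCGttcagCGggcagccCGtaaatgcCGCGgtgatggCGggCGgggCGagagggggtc

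The shared stretch of Hadha and Hadhb was the richest in CpG, with 9 in 85 bases, and Acsf2 had 14 in 165 bases. Ech1 and Acot2 had 4 in 129 and 6 in 250 bases. Hadha and Hadhb lie head to head, with RefSeq start sites at 30154980 and 30155253 on chromosome 5, 273 bases apart, so that 228 bases belong to both promoter windows. Over the 30 windows of 250 bases that RefSeq gives for 29 of the 36 genes, the median was 13.5 CpG, against 15 over 12854 windows of genes tested and 6 over all windows. Hsd17b4, Crat, Acot13, Acaa2, Cpt1b, Decr1 and Acad9 had no window.

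A direct repeat of the nuclear receptor half-site with 1 base between (AGGTCANAGGTCA, up to 2 mismatches, both strands), the form that PPARα binds with its partner RXR, was sought in windows from 250 bases before to 50 after the start. It was found in 2 of 29 genes and in 3.86% of 32851 windows overall. The matches were AGGTCACGGGTCC, which begins at base -83 from the start of Echs1, and TTACCTTTGCCCT, which begins at base -77 from the start of Etfa, neither of which passed the test. The form bound by estrogen-related receptors (TCAAGGTCA, no mismatch, both strands), which holds 1 half-site of the repeat, was found in 0 of 29 genes and in 0.423% of windows. These are matches of letters in a short window and say nothing about binding.

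Other genes of fatty acid, branched-chain and propionate oxidation were described from a list of 52. Of these, 45 were tested, 24 were above 0 and 21 below, the median log2 fold change was 0.01 and 0 passed an adjusted p under 0.05 from edgeR. At an unadjusted p under 0.05, 4 were higher and 5 lower, against 4.54% and 3.72% of all genes tested. With DESeq2 1 passed in each direction, against 62 higher and 58 lower of all 13295 genes. Cpt1a, the liver form of carnitine palmitoyltransferase, had 52.6, 61.0, 63.0, 58.2 and 51.2 CPM among control mice and 85.4, 83.2, 72.3, 67.4 and 72.6 CPM among HFD+mTAC mice, without overlap. Its log2 fold change was 0.41, with an adjusted p of 0.197 from edgeR and 0.0204 from DESeq2. Acot4, a peroxisomal thioesterase at 1.26 to 3.65 CPM, also lay higher without overlap (log2 fold change 0.67, edgeR adjusted p = 0.416).

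In the other direction, Gcdh, the glutaryl-CoA dehydrogenase of lysine breakdown, had 119, 126, 119, 111 and 131 CPM among control mice and 91.2, 109, 91.6, 100.1 and 95.8 CPM among HFD+mTAC mice, without overlap. Its log2 fold change was -0.31 (adjusted p = 0.261 from edgeR and 0.0186 from DESeq2). Hsd17b10, a dehydrogenase of branched-chain and steroid metabolism, ranged from 166 to 201 CPM in control and from 138 to 164 CPM among HFD+mTAC mice (log2 fold change -0.24, edgeR adjusted p = 0.443). The next smallest p belonged to Dbi, the acyl-CoA-binding protein, to Slc25a20, the acylcarnitine carrier of the shuttle, and to Acsl6, a long-chain synthetase, with log2 fold changes of 0.27, 0.29 and -0.35 (edgeR adjusted p = 0.432, 0.443 and 0.461). For Acsl6 the direction turned to 0.15 with limma on log2(TPM + 1).

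Of 30 regulators and fat-responsive targets of PPARα, 28 were tested, 16 above 0 and 12 below. In edgeR 1 passed as higher, against 0.0451% of all genes tested. At an unadjusted p under 0.05, 6 were higher and 2 lower, against 4.54% and 3.72% of all genes. With DESeq2 3 passed as higher and 1 as lower, against 62 and 58 of all 13295 genes. Lpl, the lipase that frees fatty acids from circulating triglyceride, had 10340, 9691, 9999, 9142 and 12320 CPM among control mice and 7579, 7972, 7582, 7051 and 7682 CPM among HFD+mTAC mice. The groups did not overlap, and the log2 fold change was -0.44 (adjusted p = 0.185 from edgeR and 0.00042 from DESeq2). Angptl4, an inhibitor of that lipase, had 4.85, 5.47, 5.05, 4.23 and 3.54 CPM among control mice and 19.1, 7.08, 10.6, 9.56 and 5.71 CPM among HFD+mTAC mice. Its groups did not overlap either, at a log2 fold change of 1.16 (edgeR adjusted p = 0.261), but the direction turned to -0.35 with effective lengths as an offset and to -0.10 with limma on log2(TPM + 1).

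Fabp3, the fatty acid-binding protein of heart muscle, had 4312 to 5958 CPM in control and 6166 to 6705 CPM among HFD+mTAC mice, without overlap (log2 fold change 0.28, edgeR adjusted p = 0.443). Ucp3, a mitochondrial uncoupling protein, had 32.8, 40.7, 45.1, 43.2 and 35.2 CPM among control mice and 87.3, 88.6, 80.2, 36.8 and 71.8 CPM among HFD+mTAC mice. Only TT-591 fell within the control range, and the log2 fold change was 0.89 (adjusted p = 0.199 from edgeR and 0.00764 from DESeq2). With 1 mouse left out, the adjusted p of Ucp3 from edgeR ran from 0.0049, which came without TT-591, to 0.468. Ucp2 and the AMP-activated kinase subunit gene Prkab1 had log2 fold changes of 0.56 and -0.24 (edgeR adjusted p = 0.309 and 0.591).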

How the data were processed

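Left ventricular RNA of 5 control and 5 HFD+mTAC mice was analyzed, with groups taken from the sample labels; the study gives fewer control mice for this comparison than the labels do, and all 5 labelled mice were used. Deposited values are expected counts, which the authors obtained with Salmon 1.6.0 and summed by gene, unnormalized and in 20.1% of cases fractional. TPM from the same estimates and average effective transcript lengths in bases were deposited beside them. The labels name hg38 as the genome build, whereas the study's methods name GRCm38 with GENCODE transcripts. Read layout is single-end with 100 bases per the labels, which put the mean depth at 29.8 M reads, and paired-end with 50 bases and a higher mean depth in the methods; the libraries held 34.2 to 53.7 M estimated counts, each above the labels' mean. Libraries were made with a stranded kit, and the strand setting of the counting is not given in the sources used here, so that reads of the 15 of 36 genes that overlap a gene on the opposite strand may include antisense reads. On either strand, 22 of the 36 overlap another gene in position. Some overlap a protein-coding gene on the same strand, such as Cpt1b with Gm44502, where strand cannot separate the reads.

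Symbols were matched to GENCODE M21 (27862 directly, 868 through an older symbol, 834 not matched, 19 altered to numbers) for biotypes and positions. Protein-coding genes outside the mitochondrial genome with at least 1 count in 9 of 10 mice were tested; the share of samples follows the study's filter on detection, for which it states no minimum count. Counts were rounded and fitted with edgeR 4.0.16 (R 4.3.3, TMM, quasi-likelihood test, common dispersion 0.0422, no covariates), with Benjamini-Hochberg adjustment over 13295 genes and a threshold of 0.05. Fold changes of named genes and their standard errors come from this fit. Single values per mouse were compared by the two-sided exact permutation test over 252 arrangements. TPM was rescaled to a common total over the genes tested (marker sums over all genes outside the mitochondrial genome). DESeq2 1.42.0 and limma 3.58.1 on log2(TPM + 1) served as alternatives, along with other normalizations, filters, an effective length offset and leaving out each mouse. Ranks by CPM per annotated length and fits with the first principal component or the mean effective length of each mouse as a covariate were added after the data had been seen.

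The 36 genes and the lists were chosen with earlier results of these data known. Values of every mouse are given for genes with an adjusted p under 0.05, genes whose groups do not overlap and the gene with the smallest p in each of 9 role groups; Hadha and Hadhb were added to these after their values were seen. From the other 2 lists, genes that passed or did not overlap and the next 3 by p are named; 1 gene of the PPARα list that passed is not reported here. In counts simulated from these libraries over 13295 genes, edgeR called 83 of 100 genes changed by a log2 of 1, 31 of 100 changed by 0.5 and 4 unchanged ones, and DESeq2 91, 50 and 24. DESeq2 thus called more unchanged genes than edgeR, a limit on the genes that passed with DESeq2 alone. Each simulated gene was drawn on its own, and the changed ones were picked among genes with a mean of at least 5 CPM. No 2 libraries of the same group agreed within sampling noise (lowest chi-square per degree of freedom 12.9).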

Additional observations from a re-analysis of the deposited data

Results flagged for a closer look

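In 4 of 72 sets of 5 mice (36 genes in 2 groups), 1 mouse stood apart from the other 4 by Dixon's ratio, at a 95% critical value of 0.71; chance alone flags about 1 in 20 sets. Cpt2 in control mouse TT-587 was 206.5 CPM, against 270.1 to 277 CPM in the other control mice. Acot2 in control mouse TT-586 was 137.6 CPM, against 91.8 to 101 CPM in the others. Hadh in HFD+mTAC mouse TT-589 was 1196 CPM, against 954 to 1022 CPM. Acsl3 in control mouse TT-583 was 9.75 CPM, against 8.18 to 8.62 CPM.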

How the results depend on the processing

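Fold changes of the 36 genes were recomputed under 22 settings, and 30 of the 36 kept their sign in all of them. The count of genes above 0 stayed between 28 and 31 and their median log2 fold change between 0.17 and 0.30. The count past an adjusted p of 0.05, 1 in the reported fit, was 0 with DESeq2's size factors in edgeR, with filterByExpr, without the low-count filter, with all biotypes, with effective lengths as an offset and with limma at either pseudocount (1 or 0.1), 3 with the first principal component as a covariate, and 4 with DESeq2; leaving out 1 mouse gave 0 to 2. Over all genes tested, the count was 8 in the reported fit, 50 with the covariate, 120 with DESeq2 and 1 to 9 when 1 mouse was left out. For Acsf2 the adjusted p over all settings ran from 1.9e-05 (DESeq2) to 0.878 (limma on log2(TPM + 0.1)). The count of genes without overlap, 4 in CPM, was 3 with DESeq2's size factors and 4 with upper-quartile normalization. In TPM it was 2, and the share of all genes in TPM is not given here. Leaving out 1 mouse gave 4 to 10 of the 36, against 1.43 to 2.05% of all genes that were higher without overlap. The 10 came without TT-591, where the share was 1.71%, against 1.08% with all mice. The cause of these moves was not tested.

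Signs turned in 6 of the 36 genes. With limma at pseudocounts of 1 and 0.1, and with the length offset, the log2 fold change was -0.54, -0.71 and -0.61 for Acad10, 0.064, 0.064 and 0.030 for Etfa, and 0.095, 0.095 and 0.056 for Etfb. Etfa was 0.0033 with upper-quartile normalization. Beyond the 36, Angptl4 turned to -0.10, -0.032 and -0.35 in the same 3 settings, and Acsl6 to 0.15 and 0.17 in limma. Leaving out 1 mouse gave -0.072 to 0.059 for Etfa, -0.067 to 0.0087 for Etfb, -0.063 to 0.12 for Acsl5, -0.13 to 0.0070 for Acsl3, -0.12 to 0.0034 for Acsl4 and -0.073 to 0.23 for Acad10. The summed level of the 36 genes averaged 20947 TPM as reported and 3018.6 TPM as deposited, before rescaling to the genes tested. No paired analysis was possible because the mice of the 2 groups carry different numbers and the labels give no pairing.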
